A study of Mus musculus with 12 samples.

Results

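Kit, the receptor tyrosine kinase that defines many progenitor gates, and Kitl, its ligand (stem cell factor), were followed through sorted cells of the mouse fetal liver (FL). Both were chosen as a receptor and ligand pair and were taken by name from the count tables, where they are 2 of 38127 genes. RNA-seq was performed on 12 libraries, 3 for each of 4 sorted populations, from C57BL/6 embryos, and the study compared what these populations express. P2 cells (Ter119-CD45-CD54-CD31-Kit+CD24+), CD31+ cells (Ter119-CD45-CD54+CD31+), and CD54+CD31- cells (Ter119-CD45-CD54+CD31-, called CD324+ in the study) were sorted at E14.5, embryonic day 14.5. A second set of CD54+CD31- cells was sorted at E18.5, embryonic day 18.5. All 4 populations therefore lack the erythrocyte marker Ter119 and the leukocyte marker CD45, and no population carries a mutation or a treatment. The E14.5 libraries of a population come from independent litters per the study, the sources used here do not say so for E18.5, and p-values measure the spread between these libraries. P2 cells were sorted on Kit protein, so a high Kit transcript level in them is a check of the label and not a finding.

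Kit dimerizes when it binds Kitl, phosphorylates its own tyrosines, and passes the signal to the PI3K, RAS to MAPK, and JAK to STAT pathways. Kitl is made as a transmembrane protein that can be presented on the cell surface or shed by proteases, so it acts over short distances. In the FL, Kit marks hematopoietic stem cells and early erythroid progenitors, and hepatoblasts, endothelium, and stellate cells are known sources of Kitl.

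Kit (ENSMUSG00000005672) lies on chromosome 5 from 75574916 to 75656722 on the + strand of GRCm38, a span of 81807 bases of which 8911 are annotated as exon in 8 transcripts, 2 of them coding. Kitl (ENSMUSG00000019966) lies on chromosome 10 from 100015630 to 100100416 on the + strand, a span of 84787 bases with 5911 exon bases in 6 transcripts, 4 of them coding. No other annotated gene overlaps either span. Sequences near the starts of both genes are shown because each gene changed between populations and, of the 2 promoters, only that of Kitl holds a TATA box. The first is the region chr5:75574737-75574915, just before the annotated start of Kit, and the second is chr10:100015784-100015813, just before the RefSeq start of Kitl, both + strand, from RefSeq's GRCm38.p6. The second stretch lies inside the annotated span of Kitl given above, which begins earlier than the RefSeq start. Capitals mark a GC box (GGGCGG) in Kit and a TATA box (TATAAA) in Kitl.
Kit: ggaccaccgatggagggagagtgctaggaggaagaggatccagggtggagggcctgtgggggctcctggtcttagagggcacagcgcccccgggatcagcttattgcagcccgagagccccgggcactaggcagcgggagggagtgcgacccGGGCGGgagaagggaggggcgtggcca
Kitl: gggagggagctgTATAAAaagcgctggcgg
In the 250 bases before the RefSeq start, searched on both strands, Kit held 1 GC box and no TATA box, and Kitl held 3 GC boxes and 1 TATA box, which began 25 bases before the start. Among 27025 promoters of this length, 32.9% held a GC box and 13.0% a TATA box. Neither gene had the letters GATAA (found in 23.0% of promoters) or CANNTG (66.0%) in this window. These matches describe letters only.

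Libraries held 40714017 to 64368883 counts, and levels are given as counts per 1000000 of the TMM-adjusted library size (CPM), as mean ± SD (n = 3). The labelled populations carried their markers. The summed level of 10 erythroid genes was 2111 to 2236 CPM in P2 cells, that of 10 endothelial genes 9609 to 10320 CPM in CD31+ cells, and that of 10 hepatoblast genes 71920 to 82600 CPM in CD54+CD31- cells at E14.5. The E18.5 libraries stood apart in 2 respects. They carried 9643 to 21410 CPM of lung epithelium genes (at most 250.1 CPM elsewhere), and in replicate 1 the hepatoblast genes summed to 5925 CPM against 51330 CPM in the highest E18.5 library. In such bulk samples, fewer cells of a type and less RNA per cell cannot be told apart. Lung RNA and age differ together in every comparison of E18.5 with E14.5 below, for all genes named, and cannot be told apart. Genes lying inside the span of another gene were nearly all listed at 0. Of 617 protein-coding genes inside another gene's span with no shared exon bases, 611 (99.0%) had no count in any library, against 15.7% of 13886 genes whose span holds no other gene. Of the 423 that lie on the opposite strand of the surrounding gene, 418 had none. How introns and strand were treated in counting is not given in the sources used here, so levels of different genes are compared below both per kb of span and per kb of exon.

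Kit was highest in P2 cells, intermediate in CD31+ cells, and low in CD54+CD31- cells at both ages. P2 libraries had 299, 309.7, and 359 CPM (323 ± 32 CPM; 13021 to 18644 counts). CD31+ libraries had 50.6, 60.9, and 68.8 CPM (60.1 ± 9.15 CPM). CD54+CD31- libraries had 7.19, 12.8, and 13.7 CPM at E14.5 (11.2 ± 3.52 CPM; 254 to 554 counts). At E18.5 they had 9.02, 13.6, and 10.4 CPM (11 ± 2.37 CPM). The P2 libraries lay above all others and the CD31+ libraries above both CD54+CD31- groups, whose values overlapped. In order of level, P2 and CD31+ cells, and CD31+ cells and each CD54+CD31- group, differed beyond the spread, and the 2 CD54+CD31- groups did not. Kit in CD54+CD31- cells at E18.5 was 5.44-fold lower than in E14.5 CD31+ cells (edgeR adjusted p = 3.64e-06; 68.5% of genes called). A decrease as large or larger was seen for 5.7% of genes. Age and gate differ together in this comparison and cannot be told apart.

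Kit was 28.7-fold higher in P2 cells than in CD54+CD31- cells at E14.5 (log2 4.84 ± 0.26 SE; edgeR quasi-likelihood test, adjusted p = 3.94e-08). Between these 2 populations 65.7% of the 16643 genes tested were called, and only 20 genes (0.12%) had an increase as large as Kit or larger. Against CD31+ cells, Kit was 5.37-fold higher in P2 cells (log2 2.42 ± 0.23 SE; edgeR adjusted p = 3.04e-06), where 67.8% of genes were called. Both values follow the Kit+ gate. No comparison among the other 3 populations used the Kit gate. Between CD31+ and CD54+CD31- cells at E14.5, 60.8% of genes were called. Kit was 5.35-fold higher in CD31+ cells (log2 2.42 ± 0.24 SE; edgeR adjusted p = 4.87e-06), and 10.3% of genes had an increase as large or larger. From E14.5 to E18.5 in CD54+CD31- cells, 68.6% of genes were called, and Kit was not (log2 -0.02 ± 0.23 SE; edgeR adjusted p = 0.929). The sign of this last value turned in 10 of 19 alternatives, from -0.20 to 0.40, with adjusted p from 0.11 to 0.993, and without replicate 1 of E18.5 it was 0.10.

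**Figure D1:**
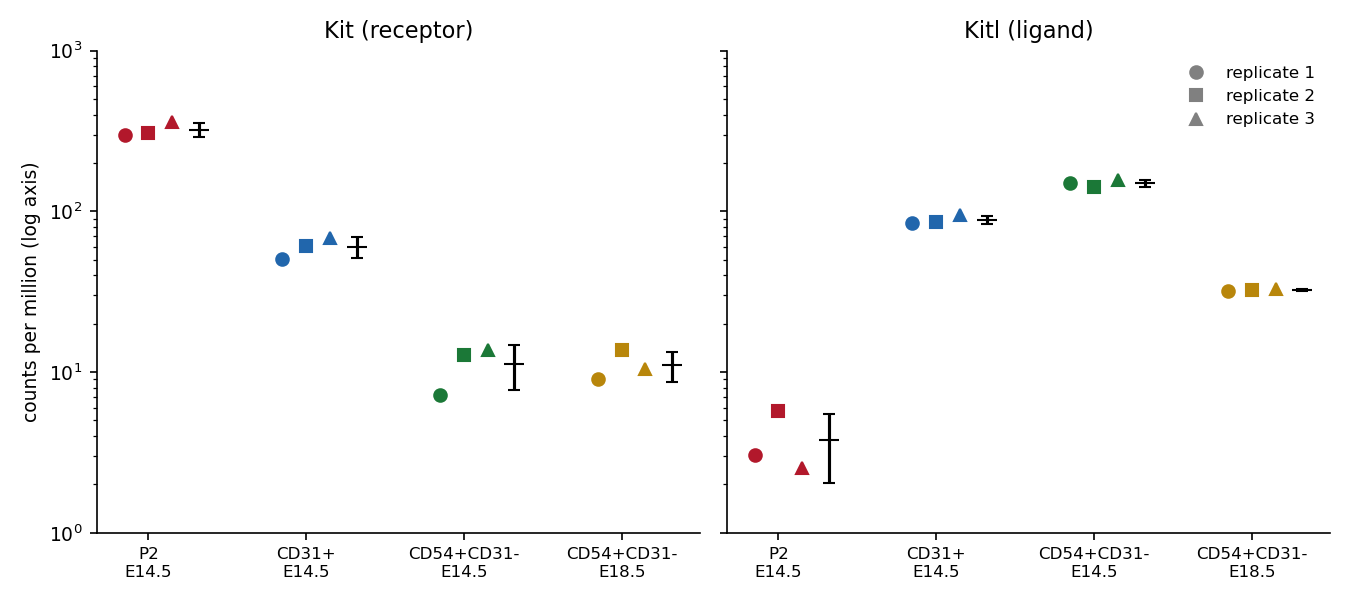
Levels of Kit (left) and Kitl (right) in CPM on a log axis, for each of the 12 libraries. Symbols give the replicate number and the black bar and whiskers the mean ± SD of 3 libraries. Kit falls from 323 CPM in P2 to 11.2 CPM in CD54+CD31- cells at E14.5, and Kitl rises from 3.78 to 149 CPM between the same populations.

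Kitl had the opposite order at E14.5, highest in CD54+CD31- cells and lowest in P2 cells. CD54+CD31- libraries had 149.9, 141, and 157 CPM at E14.5 (149 ± 7.71 CPM). CD31+ libraries had 85.3, 85.9, and 95.1 CPM (88.8 ± 5.51 CPM). CD54+CD31- libraries at E18.5 had 31.8, 32.6, and 33.0 CPM (32.5 ± 0.62 CPM), and P2 libraries had 3.03, 5.76, and 2.54 CPM (3.78 ± 1.74 CPM; 132 to 277 counts). No library of one population overlapped with a library of another, so each neighbour in this order differed beyond its spread. Among all genes tested, libraries did not overlap for 71.7% between P2 and CD54+CD31- cells at E14.5, 73.1% between P2 and CD31+ cells, 66.2% between CD31+ and CD54+CD31- cells, and 75.5% between the ages. For the E18.5 libraries it was 83.5% against P2 cells and 71.1% against CD31+ cells.

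Among the P2 libraries, replicate 2 had the highest Kitl level (5.76 CPM) and also the highest sum of endothelial genes, 404 CPM against 60.6 and 106 CPM in the others, and the part of endothelial RNA in its Kitl value was not tested. In P2 cells Kitl was 39.5-fold lower than in CD54+CD31- cells at E14.5 (log2 -5.30 ± 0.27 SE; edgeR adjusted p = 2.15e-08), and 5.24% of genes had a decrease as large or larger. Without replicate 2 of P2 the value was -5.75 (adjusted p = 3.12e-09). It was 23.5-fold lower than in CD31+ cells (log2 -4.55 ± 0.26 SE; edgeR adjusted p = 6.72e-08). The gap between CD31+ and CD54+CD31- cells was narrower. Kitl was 1.68-fold lower in CD31+ cells (log2 -0.75 ± 0.22 SE; edgeR adjusted p = 0.0112), a decrease that 26.2% of genes reached. Between the ages, Kitl was 4.60-fold lower at E18.5 than at E14.5 in CD54+CD31- cells (log2 -2.20 ± 0.23 SE; edgeR adjusted p = 5.64e-06). At -2.18 (adjusted p = 1.39e-05) the value was close to this without replicate 1 of E18.5, and 4.88% of genes fell as far or farther. At E18.5 Kitl in CD54+CD31- cells was also 2.73-fold lower than in E14.5 CD31+ cells (edgeR adjusted p = 0.000131; 68.5% of genes called) and 8.58-fold higher than in P2 cells (edgeR adjusted p = 2.57e-07; 80.6% of genes called), and in both comparisons age and gate differ together and cannot be told apart.

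Within a library, the ratio of Kitl to Kit does not depend on how libraries are scaled. Per kb of gene span, Kitl exceeded Kit 20.1-, 10.6-, and 11.1-fold in the CD54+CD31- libraries at E14.5 (geometric mean 13.3). In CD31+ libraries the ratio was 1.63, 1.36, and 1.33 (geometric mean 1.43), the closest to equal transcript levels of any population with either length. At E18.5 the CD54+CD31- libraries gave 3.39, 2.31, and 3.05 (geometric mean 2.88), and in P2 cells Kit exceeded Kitl 102-, 55.6-, and 146-fold. Per kb of exon the geometric means were 20.6, 2.24, and 4.48 in the first 3 populations, and Kit exceeded Kitl 59.2-fold in P2 cells. The ratio differed between the 3 populations that were not sorted on Kit, whose libraries did not overlap (exact permutation test of the F statistic, p = 0.00357, the smallest that 1680 arrangements can give). The distance between the highest and lowest of these group means was 3.20 on the log2 scale per kb of exon and 3.21 per kb of span.

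**Figure D2:**
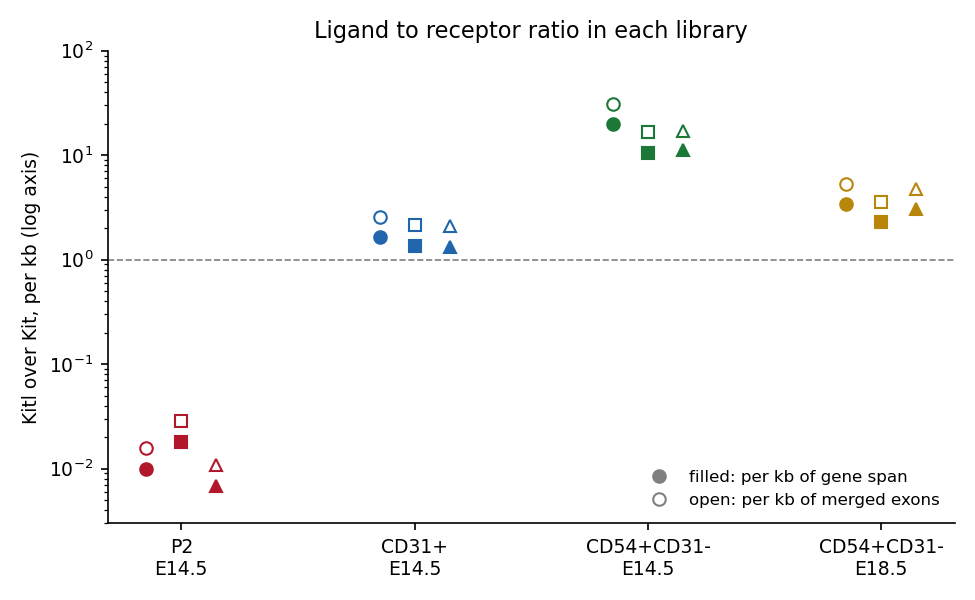
Ratio of Kitl to Kit in each library on a log axis, per kb of gene span (filled) and per kb of merged exons (open), with circles, squares, and triangles for replicates 1, 2, and 3 and a dashed line at equal levels. The CD54+CD31- libraries at E14.5 lie highest (10.6 to 20.1 per kb of span) and the P2 libraries lie far below the line.

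Transcripts of other cells were present in each sort, and their levels are set here beside the lower Kit and Kitl values. In CD54+CD31- cells at E14.5 Kit reached 3.48% of its P2 level. The erythroid genes Klf1, Epor, Gata1, Rhag, Ermap, and Tspo2, which encode regulators, a cytokine receptor, and membrane proteins of red cell precursors, reached 12.7% to 16.6% of theirs, and Slc4a1, the anion exchanger of later erythroid stages, 186%. In CD31+ cells Kit reached 18.6% of its P2 level, and the first 6 genes 8.25% to 15.3%. At E18.5 Kit was at 3.42% and these 6 genes at 2.18% to 5.49%. Alas2, another erythroid gene of the list, had no count in any library and lies inside the span of another gene. These 6 genes and Kit are all in the list the study drew from these samples for being higher in P2 cells, so none of them is independent evidence of that direction. The part of erythroid RNA in the low Kit values was not tested. Mast cells are a further known source of Kit, and of 8 mast cell genes 3 passed the filter. Their sum of 14.2 to 42.8 CPM at E18.5 was nearly all Hdc (24.1 ± 16 CPM), while Cpa3 and Ms4a2 were at 0.05 and 0.11 CPM. In CD31+ cells these 3 genes were at 14.9, 3.05, and 1.12 CPM, and the list summed to at most 4.09 CPM in the other E14.5 populations. Melanoblast genes did not exceed 2.32 CPM in any library. Megakaryocyte genes summed to 423.5 to 778.7 CPM in CD31+ cells and to at most 126.5 CPM in the other populations. Macrophage genes summed to 1349 to 1605 CPM in CD31+ cells and to at most 583.3 CPM elsewhere, but most of them did not share this direction. Of these 8 genes, 1 was called higher in CD31+ than in CD54+CD31- cells at E14.5, 4 lower, and 3 not called. Their median log2 change was -1.23 against -0.03 over all genes, of which 60.8% were called. What mast cells, megakaryocytes, or macrophages add to the Kit value of CD31+ cells was not tested. A list of 8 genes of stem and progenitor cells, several of which endothelium also expresses, summed to 464.5 to 684 CPM at E18.5, 322 to 355.7 CPM in CD31+ cells, 94.9 to 108 CPM in CD54+CD31- cells at E14.5, and 13.0 to 25.1 CPM in P2 cells. Mecom led these sums at E18.5 (482 CPM) and in CD31+ cells (159 CPM).

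Kitl in P2 cells was at 2.53% of its level in CD54+CD31- cells at E14.5, where 9 hepatoblast genes including Alb and Afp were at 0.79% to 1.36%. In CD31+ cells Kitl was at 59.4%, and the same 9 genes were at 1.07% to 1.5%. The tenth hepatoblast gene, Trf, had 56 counts over all libraries and lies almost wholly inside another gene's span. At E18.5 Kitl was at 21.7%, and the hepatoblast genes ranged from 16.3% (Afp, the fetal albumin relative) to 167% (Cdh1, the E-cadherin gene that gives CD324). Of 11 stellate and mesenchymal genes, 10 were higher at E18.5 than at E14.5, led by the collagen genes Col1a1 and Col3a1, and Reln, the highest of them at E14.5, fell from 1025 to 198 CPM (log2 -2.37, edgeR adjusted p = 6.87e-05). The median log2 change of the list was 1.56, against -0.14 over all genes, of which 68.6% were called. The list summed to 1122 to 1206 CPM at E14.5 and 3475 to 3607 CPM at E18.5. Mesothelial genes went from at most 7.84 CPM to 342.8 to 560.2 CPM. The part of the lung, mesenchymal, and mesothelial RNA in the Kitl value at E18.5 was not tested.

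**Figure D3:**
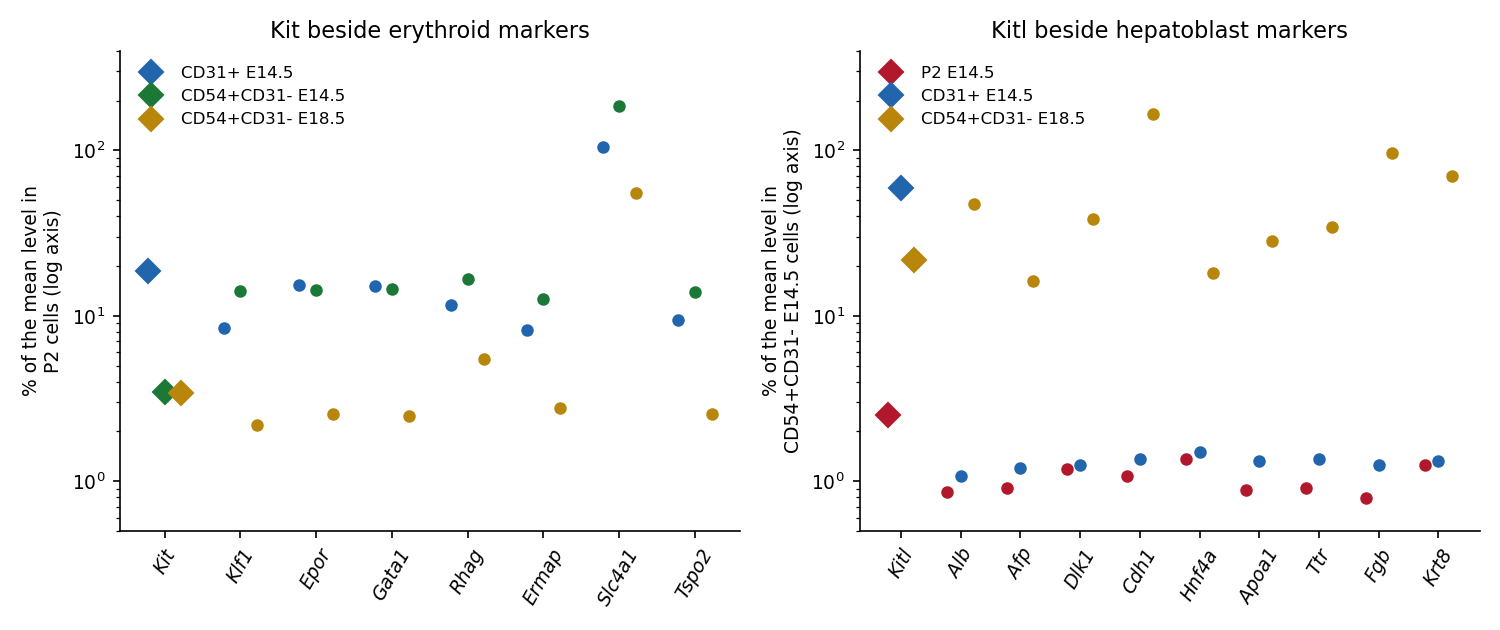
Level of Kit and 7 erythroid genes as a percentage of their mean in P2 cells (left), and of Kitl and 9 hepatoblast genes as a percentage of their mean in CD54+CD31- cells at E14.5 (right), on log axes. Diamonds are Kit and Kitl and circles the markers. Kit in CD54+CD31- cells at E14.5 (3.48%) lies below each erythroid gene shown, and Kitl in CD31+ cells (59.4%) lies above each hepatoblast gene in those cells.

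Kit belongs to the type III receptor tyrosine kinases with the PDGF receptors, the CSF1 receptor, and Flt3. Of these 5 genes, Kit was the one called higher in P2 than in CD54+CD31- cells at E14.5, and 3 were lower, beside 65.7% of all genes called. Csf1r, the receptor of macrophages, was at 1.28 ± 0.06 CPM in P2 cells and 45.7 ± 13.7 CPM in CD54+CD31- cells (edgeR adjusted p = 1.57e-06). Pdgfrb and Pdgfra, receptors of mesenchymal cells, were at 1.07 and 1.37 CPM in P2 cells against 11.4 and 6.96 CPM. Flt3, a receptor of lymphoid and multipotent progenitors, stayed below 1 CPM in every library and was called in none of these comparisons with this scaling. In CD31+ cells Kit was again the one receptor called higher than in CD54+CD31- cells, and Pdgfra, Pdgfrb, and Csf1r were lower (11.8 ± 3.41 CPM for Csf1r), beside 60.8% of all genes called. From E14.5 to E18.5 Pdgfra rose from 6.96 to 40.8 CPM and Pdgfrb from 11.4 to 33.2 CPM (edgeR adjusted p = 3.67e-06 and 1.72e-05), while Kit and Csf1r were not called. Over all genes 68.6% were called. What the lung, mesenchymal, and mesothelial RNA at E18.5 adds to these 2 rises was not tested.

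Among the ligands of this receptor class, Kitl and Csf1, the macrophage growth factor, were both highest in CD54+CD31- cells at E14.5. Csf1 was at 0.98 ± 0.38 CPM in P2 cells, 30.2 ± 1.89 CPM in CD54+CD31- cells, and 19.3 ± 4.04 CPM in CD31+ cells. Of the 7 ligands tested, 6 were called lower in P2 cells when set against CD31+ cells and none higher, with a median log2 change of -3.87 against -0.17 over all genes, of which 67.8% were called. Pdgfb and Pdgfd, growth factors for mural and mesenchymal cells, were highest in CD31+ cells at 16.1 ± 2.68 and 15.7 ± 2.77 CPM. From E14.5 to E18.5 Kitl was the one ligand called lower, and 5 were called higher. Over all genes 68.6% were called, and 44.6% of these calls were higher. Pdgfa rose from 3.80 to 66.1 CPM, Pdgfc from 0.87 to 15.7 CPM, and Il34, a second ligand of the CSF1 receptor, from 0.24 to 11.3 CPM. How much of these rises comes from the lung, mesenchymal, and mesothelial RNA at E18.5 was not tested. Without replicate 1 of E18.5, 4 were higher and Kitl remained the one called lower. Csf1 was at 23.0 ± 1.15 CPM at E18.5 and was not called. Flt3l was not analysed because 2 identifiers carry its name.

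**Figure D4:**
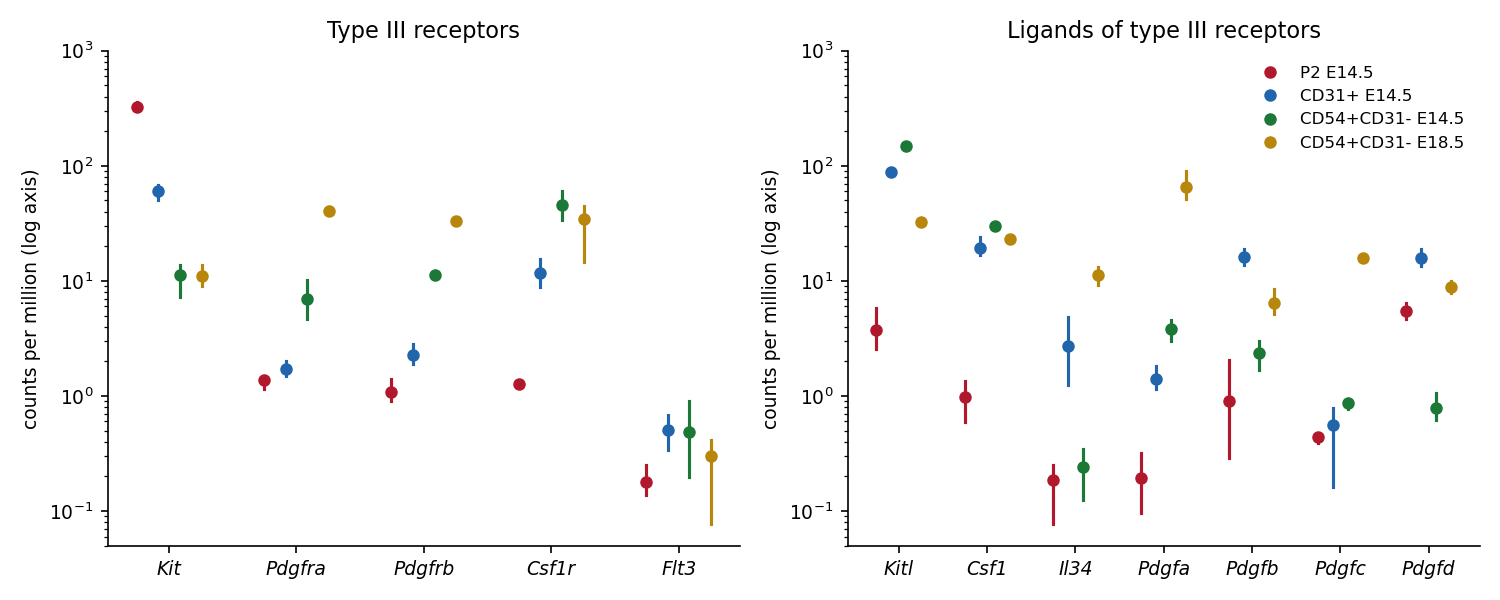
Mean level (points) and range over 3 libraries (lines) of the type III receptors (left) and their ligands (right) in CPM on log axes, by population. Colours name the population. Kit is higher in P2 cells (323 CPM) than in the other populations, while Csf1r, Pdgfra, and Pdgfrb are below 2 CPM there.

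The molecules that first bind activated Kit did not move as one. Of 19 adaptors, lipid enzymes, and kinases next to the receptor, 10 were higher in P2 than in CD54+CD31- cells at E14.5, 6 lower, and 3 not called, with a median log2 change of 0.44 against -0.06 over all genes. With the authors' scaling factors 6 were higher and 7 lower, and across all genes the share of calls that were higher went from 47.8% to 36.4%. Gab2, a docking protein for PI3K, was at 71.5 ± 3.73 CPM in P2 cells and 14.4 ± 1.67 CPM in CD54+CD31- cells (edgeR adjusted p = 2.09e-08). Btk, a Tec family kinase, was at 69.0 ± 4.42 against 9.28 ± 2.58 CPM, and Jak2, which also serves the erythropoietin receptor, at 127 ± 7.75 against 45.1 ± 5.98 CPM. Grb7, an adaptor, went the other way, from 131 ± 4.78 CPM in CD54+CD31- to 1.38 ± 0.31 CPM in P2 cells (edgeR adjusted p = 2.31e-09), and the kinase Src fell from 27.3 to 1.59 CPM. Btk, like Kit, is in the study's own list from these samples.

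Of the same 19 genes, 12 were higher in CD31+ than in CD54+CD31- cells, 5 lower, and 2 not called (median log2 change 0.53, all genes -0.03). Of all genes 60.8% were called, and 29.8% were called higher. The Src family kinases Fyn and Lyn were at 628 ± 116 and 181 ± 3.74 CPM in CD31+ cells against 42.0 ± 1.1 and 30.8 ± 8.14 CPM. Gab2 was at 131 ± 14.4 CPM, above its level in P2 cells (edgeR adjusted p = 2.51e-05), and the phospholipases Plcg1 and Plcg2 at 28.5 ± 8.21 and 59.9 ± 10.7 CPM against 3.88 and 11.2 CPM. The largest change of the list was that of Grb7, at 1.84 ± 0.50 CPM in CD31+ cells against 131 CPM in CD54+CD31- cells (log2 -6.16, edgeR adjusted p = 4.87e-09). Other annotated genes cover 93.2% of the exon bases of Plcg1 and 37.1% of those of Fyn, so their values are uncertain. Against CD31+ cells, P2 cells were higher for 3 of the 19 and lower for 8, beside 67.8% of all genes called, and with the authors' factors lower for 13.

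At E18.5, 4 of the 19 were higher and 10 lower than at E14.5 in CD54+CD31- cells. Over all genes 68.6% were called, and 44.6% of these calls were higher. With the authors' factors 8 were higher and 5 lower, and over all genes the median shifted by 0.42 on the log2 scale, so this balance depends on the scaling. Grb7 fell from 131 to 36.2 CPM and Btk from 9.28 to 2.83 CPM, and Src rose from 27.3 to 85.6 CPM.

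The downstream cascade was measured over 22 genes, and its changes were small. Between P2 and CD54+CD31- cells at E14.5, 11 were higher, 6 lower, and 5 not called, beside 65.7% of all genes called, with a median log2 change of 0.29 against -0.06 over all genes. The log2 changes lay between -1.78 and 1.68, and with the authors' factors 5 were higher and 6 lower. Stat5a, which carries cytokine signals in erythroid cells, was at 74.5 ± 5.11 CPM in P2 cells against 23.2 ± 1.43 CPM in CD54+CD31- and 13.5 ± 0.97 CPM in CD31+ cells. Stat3, the mediator of IL-6 signals in hepatocytes, was at 206 ± 2.20 CPM in CD54+CD31- cells and 64.0 ± 5.30 CPM in P2 cells. Mapk3, which encodes ERK1, was at 15.4 ± 1.28 CPM in P2 cells, 65.3 ± 5.24 CPM in CD31+ cells, and 52.9 ± 4.08 CPM in CD54+CD31- cells. In CD31+ against CD54+CD31- cells 6 were higher and 11 lower, beside 60.8% of all genes called. Akt1, a kinase that PI3K activates, was at 219 ± 29.3 against 104 ± 8.44 CPM (edgeR adjusted p = 1.8e-05). At E18.5, 6 were higher and 11 lower than at E14.5 (9 and 6 with the authors' factors), beside 68.6% of all genes called. The transcription factor Foxo3, which PI3K signals restrain, rose from 91.5 ± 8.32 to 408 ± 76.1 CPM.

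Most genes that restrain Kit signals were higher in CD31+ than in CD54+CD31- cells. Of 17 such genes, 16 were tested. Between CD31+ and CD54+CD31- cells 11 were higher, 4 lower, and 1 not called, with a median log2 change of 1.49 against -0.03 over all genes, of which 29.8% were called higher, and 11 were higher also with either other set of factors. Inpp5d, the SHIP1 phosphatase, was at 126 ± 10.4 CPM in CD31+ cells, 17.8 ± 5.09 CPM in CD54+CD31- cells, and 100.4 ± 2.17 CPM in P2 cells, where it was not called against CD31+ cells. Cblb, a ubiquitin ligase that marks receptors for degradation, was at 116 ± 13.2 CPM in CD31+ cells, 28.7 ± 2.63 CPM in P2 cells, and 27.3 ± 2.97 CPM in CD54+CD31- cells. Sh2b3, the adaptor LNK, was at 103 ± 10.3 CPM in CD31+ cells against 31.7 ± 4.50 CPM in P2 cells. Between P2 and CD54+CD31- cells 3 were higher, 5 lower, and 8 not called, beside 65.7% of all genes called. Dusp6, an ERK phosphatase, was at 2.16 ± 1.24 CPM in P2 cells against 30.6 ± 5.09 CPM in CD54+CD31- and 64.5 ± 16.3 CPM in CD31+ cells, the same direction as Mapk3. At E18.5, 3 were higher and 5 lower than at E14.5 (6 and 0 with the authors' factors), beside 68.6% of all genes called, and Cblb rose from 27.3 to 121 CPM. Sla, the gene not tested, was at 0 in all libraries and lies inside the span of another gene, and Inpp5d is in the study's own list.

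**Figure D5:**
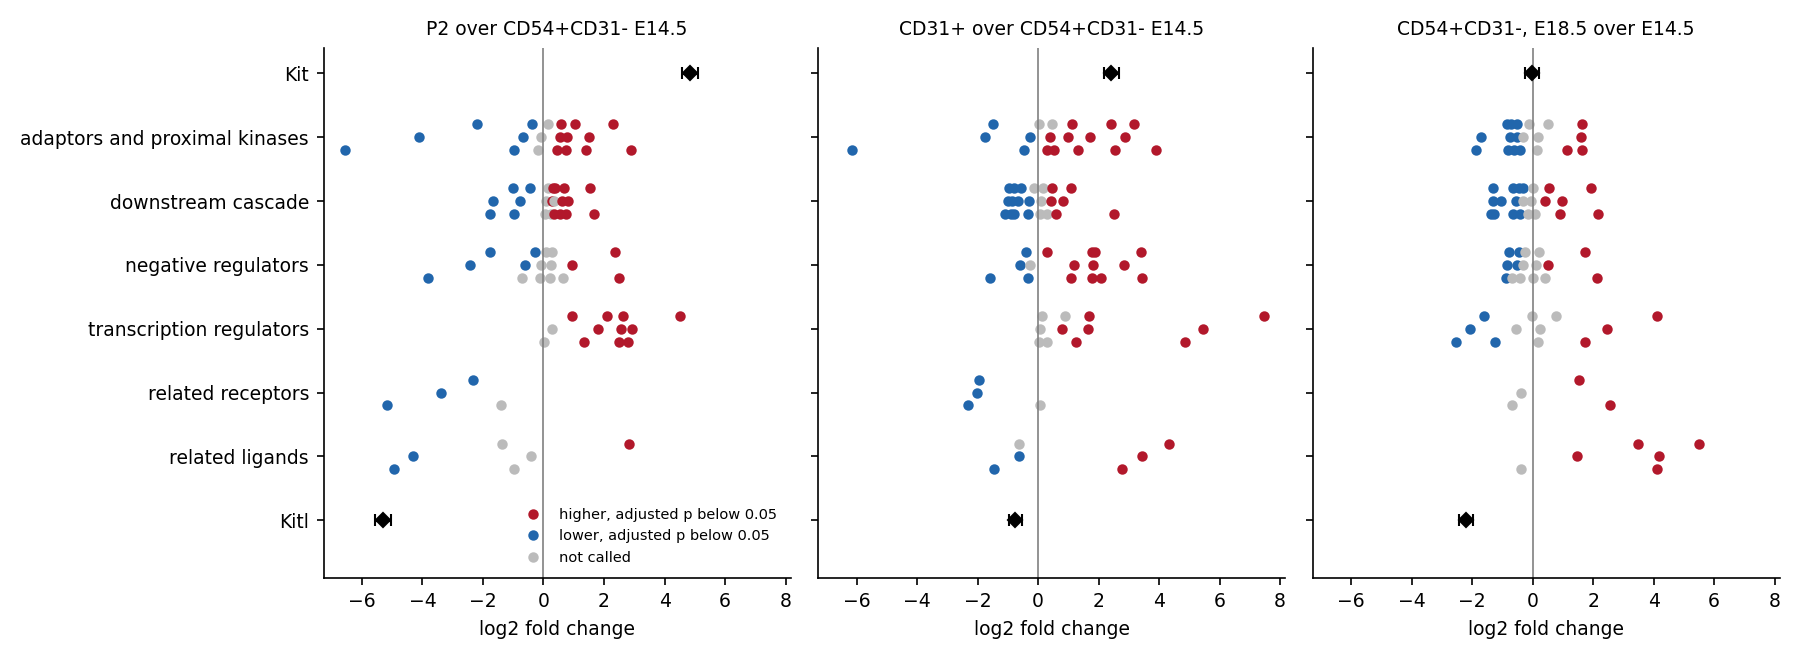
Log2 fold changes of Kit, Kitl, and the genes of 6 lists (vertical axis) in 3 comparisons (panels), each point 1 gene. Red points were called higher, blue points lower, and grey points not called, and black diamonds give Kit and Kitl with their SE. The transcription regulators lie at or above 0 in the left and middle panels, and the adaptors, cascade, and negative regulators lie on both sides.

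Most transcription factors known to act on the Kit gene in blood cells were higher in P2 than in CD54+CD31- cells. Of 14 factors 12 were tested, and 10 were higher in P2 than in CD54+CD31- cells at E14.5, none lower, and 2 not called, with a median log2 change of 2.29 against -0.06 over all genes (31.4% of genes were called higher). Myb, a factor of definitive progenitors, was at 278 ± 24.0 CPM in P2 cells, 38.1 ± 9.01 CPM in CD31+ cells, and 12.2 ± 4.64 CPM in CD54+CD31- cells at E14.5, the same order as Kit. Gata1, the erythroid master regulator, was at 176 ± 7.35 CPM in P2 cells, 26.6 ± 3.11 CPM in CD31+ cells, and 25.5 ± 8.72 CPM in CD54+CD31- cells. Tal1 was at 275 ± 13.8 CPM in P2 cells against 83.7 ± 13.6 and 44.8 ± 16.2 CPM. Gata1, Tal1, Lmo2, and Myb are in the list the study drew from these samples, so their direction is not independent evidence. Other annotated genes cover 95.5% of the exon bases of Lmo2 and 50.1% of those of Myb. Lyl1 and Zfpm1, the factors not tested, were at 0 in all libraries and lie inside the span of another gene.

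In CD31+ cells 7 of the 12 factors were higher than in CD54+CD31- cells and none lower (median 1.08, all genes -0.03; 29.8% of genes were called higher). The factors that led were the endothelial ETS factors Erg and Fli1 and Gata2, a factor of stem cells, mast cells, and endothelium. Gata2 was at 36.7 ± 2.67 CPM in CD31+ cells, 6.41 ± 1.75 CPM in P2 cells, and 0.86 ± 0.57 CPM in CD54+CD31- cells, so that it was higher in CD31+ than in P2 cells although Kit was lower there (edgeR adjusted p = 6.65e-05). Gata1 was not called between CD31+ and CD54+CD31- cells, where Kit was 5.35-fold higher. At E18.5, 3 factors were higher and 4 lower than at E14.5 (6 and 4 with the authors' factors), beside 68.6% of all genes called. Mitf, the factor of melanocytes and mast cells, rose from 3.18 ± 1.16 to 54.9 ± 6.72 CPM (edgeR adjusted p = 1.45e-07), and Gata1 fell from 25.5 to 4.39 CPM.

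Proteases that can shed Kitl were at low levels apart from Adam17. Adam17, a broad sheddase, was at 75.7 ± 3.42 CPM in P2 cells, 84.0 ± 7.19 CPM in CD31+ cells, 78.2 ± 5.30 CPM in CD54+CD31- cells at E14.5, and 86.8 ± 11.3 CPM at E18.5, and was called in none of the comparisons listed here with this scaling. Mmp9, the matrix protease linked to release of Kitl in bone marrow, stayed at or below 0.52 CPM at E14.5 and reached 2.35 ± 0.69 CPM at E18.5. Adam33 rose from 0.09 ± 0.07 to 4.33 ± 0.85 CPM between the ages (edgeR adjusted p = 9.02e-06). Timp3, an inhibitor of Adam17, was at 0 in all libraries and lies inside the span of another gene, and Cma1, mast cell chymase, had 3 counts in all, so neither was tested.

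Pdgfra ends 376.7 kb before Kit, and the span of Kdr, which encodes VEGF receptor 2, lies 276.1 kb after it on the other strand. Like Kit, Kdr was called higher in P2 and in CD31+ than in CD54+CD31- cells at E14.5 (edgeR adjusted p = 0.00326 and 2.51e-06). Of all genes, 31.4% and 29.8% were called higher in these comparisons. Unlike Kit, Kdr was lower in P2 than in CD31+ cells (edgeR adjusted p = 1.11e-05) and higher at E18.5 than at E14.5. Of all genes, 67.8% and 68.6% were called there. Kdr was at 2051 ± 115 CPM in CD31+ cells, 36.4 ± 34.5 CPM in P2 cells, and 6.87 ± 3.00 CPM in CD54+CD31- cells at E14.5. P2 libraries ranged from 12.2 to 75.9 CPM for Kdr, with the highest level in replicate 2. Of the 10 endothelial genes, Kdr included, 8 were called higher in P2 than in CD54+CD31- cells at E14.5. In P2 cells Kdr was at 1.77% of its CD31+ level, and the median of the 10 genes was 1.98%. The part of endothelial RNA in the Kdr value of P2 cells was not tested. The more distant neighbour Chic2 was at 34.4 to 38.9 CPM in all 4 population means and Srd5a3 at 12.1 to 16.9 CPM, and Gsx2 had no count. Of the 6 nearest protein-coding genes of Kitl, Dusp6 lies 748.1 kb before it and is described above.

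Over the 12 libraries, the genes with the highest Pearson correlation with Kit in log2(CPM + 1) were Ptprcap (r = 0.994), Hk1 (0.994), Ccdc14 (0.993), Slc7a1 (0.992), and Slc38a1 (0.992), and 197 genes had r of at least 0.95. Ptprcap was at 17.6 CPM in P2, 4.53 CPM in CD31+, and 0.97 and 0.93 CPM in the CD54+CD31- cells of E14.5 and E18.5. All but Ccdc14 are in the study's list from these samples. For Kitl the genes were Mfge8 (r = 0.993), Calu (0.99), Nhlrc3 (0.989), Neu1 (0.989), and Rassf3 (0.989), with 135 genes at or above 0.95. Mfge8 was at 222 CPM in CD54+CD31- cells at E14.5, 96.4 CPM in CD31+ cells, 47.7 CPM at E18.5, and 5.14 CPM in P2 cells. Kit and Kitl themselves had r of -0.755. The 12 points fall into 4 populations and share one scaling, so these correlations are given as a description only.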

How the data were processed

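Per the labels and the study's methods, FLs were digested with liberase (the labels' protocol) and cells sorted, ribosomal RNA was removed, libraries were made with a stranded total RNA kit, and single reads were trimmed with cutadapt 1.11, aligned to GRCm38 with STAR 2.5.0a, and counted with featureCounts 1.4.6-p3. Whether counting used strand is not given in the sources used here. The authors deposited raw counts per gene and a score per gene, which equals the count times a factor of its library after rounding. Only the counts were tested, and the score served to read the authors' factor.

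All 12 libraries entered 1 fit in R 4.3.3 with edgeR 4.0.16 (TMM, filterByExpr, quasi-likelihood test, population as the only factor, Benjamini-Hochberg adjustment, adjusted p below 0.05), which tested 16643 genes. GENCODE vM21 gave positions and lengths for 37932 of 38127 identifiers. The Kitl to Kit ratio was taken after adding 0.5 to each value. The scripts were tested on simulated data. Libraries held 40714017 to 64368883 counts, so the 3 libraries per population limit the precision more than the depth does.

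The members and gene lists were chosen with earlier results of these data known. Named genes were Kit, Kitl, their receptor and ligand classes, the genes next to them, up to 6 genes per list and comparison with the largest change without overlap, and the 5 genes most correlated with each member. A few genes that this rule names are not reported here. The lists whose counts are given were also run without replicate 1 of E18.5 and with other scalings. Alternatives were DESeq2 1.42.0 and its size factors, the authors' factors, no filter, genes above 1% of a library left out, only the libraries compared, the replicate block, and each library left out. Deviations of CD31+ and CD54+CD31- libraries of the same number correlated at 0.334, 0.26, and 0.122. Libraries of different numbers were not set beside them, and the labels give numbers only. Whether the numbers pair these libraries is therefore not known. With the replicate block Kitl was lower in CD31+ cells by log2 -0.75 (adjusted p = 0.0155).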

Additional observations from a re-analysis of the deposited data

How the results depend on the processing

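The 11 other tests of Kit and Kitl kept their direction and stayed past the threshold under every alternative tried, each library left out included. Kitl between CD31+ and CD54+CD31- cells at E14.5 ranged from log2 -0.83 to -0.65, with adjusted p up to 0.0386. The exception is Kit between E18.5 and E14.5 in CD54+CD31- cells, log2 -0.02, which turned to 0.17 with DESeq2's size factors, 0.40 with the authors' factors, 0.17 with DESeq2's test, 0.22 without the filter, 0.16 with only the CD54+CD31- libraries, and 0.0018 with the replicate block. Leaving out each library in turn gave -0.20 to 0.31. No alternative called it, and the cause was not tested. The range of the group means of the Kitl to Kit ratio lay between 2.91 and 3.36 on the log2 scale in 13 alternatives. Its exact permutation p of 0.00357 is the smallest these designs can give in each of them, and another length or no length shifts every library nearly equally, so neither speaks to stability. The length by gene span and by longest coding transcript, the list counts with other scalings, and those without replicate 1 of E18.5 were chosen after seeing the data. The number of genes called stayed within 1.5 times in all alternatives. With the authors' factors the share of calls that were higher changed from 44.6% to 60.6% between the ages, from 54.6% to 70.0% for E18.5 against P2 cells, from 43.3% to 56.8% for E18.5 against CD31+ cells, and from 46.5% to 32.8% for P2 against CD31+ cells, and medians of all genes shifted by -0.38 to 0.70. Outside the CD31+ and CD54+CD31- pair, same-numbered libraries correlated at -0.0898 to 0.336, not all above 0.1, and whether the numbers pair them is not known either. The replicate block changed no call of Kit or Kitl.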
